A study of Mus musculus with 3 samples.

Results

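Integrins are the surface receptors through which a cell grips the matrix around it. Each is a pair of an alpha and a beta subunit, the alpha subunit mostly sets which matrix protein is bound, and the tail of the beta subunit is tied to the actin skeleton through adaptor proteins such as talin, kindlin and the ILK complex. Through that link the cell both pulls on the matrix and reads how stiff it is, and in the injured heart these receptors are known for holding myofibroblasts, the contractile and matrix-producing fibroblasts of the scar, in place and for releasing TGF-β from its latent store. The 10 subunits described here bind matrix and are named by a rule that uses no measured value, although earlier results of these data were known when it was set: the collagen receptor subunits Itga1 and Itga11, the laminin receptor subunits Itga3 and Itga7, the subunits Itga5, Itga8 and Itgav of receptors for fibronectin and other proteins with the RGD motif, and the beta subunits Itgb1, Itgb3 and Itgb5. They are 10 of 15394 genes measured on the arrays, and have 14 of the 20255 probes of these genes. The value of a gene is that of its brightest probe unless another is named.

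The cells came from male C57BL/6J mice whose left anterior descending coronary artery was permanently ligated, and the hearts were taken 3 days later. The labels give the age of the mice as 8 weeks in one field and as 10 weeks at ligation in another. The hearts were digested with collagenase and elastase, the cells were allowed to attach to plastic overnight, and those without CD45, a leukocyte surface protein, were kept as cardiac myofibroblasts. All groups share this injury and this selection, and no uninjured heart was included. Adherent (Ad) cells were grown on plastic plates, non-adherent (Non) cells were moved from such plates into suspension on a surface that does not allow attachment, and re-adherent (Re) cells were returned from suspension to plastic, each step lasting several days. The states followed one another, so time in culture and state cannot be told apart. The paper's methods report that most cells were lost in suspension under this protocol, and attribute this to anoikis, the death of detached cells. The non-adherent and re-adherent cells were therefore survivors, and selection of cells cannot be told apart from state either. Each RNA was a mixture from several hearts and each state had 1 array, so there is no spread between replicates, no test and no p-value below. The question put by the comparison was how the genes for matrix receptors differ between cells with and without a solid support.

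All values are intensities of 1-colour arrays, and a difference is the log2 signal minus the 75th percentile of its array, set against the same quantity on another array. The 75th percentile was 651 units on the adherent, 697 on the non-adherent and 541 on the re-adherent array, and of 59305 spots other than controls 53.9% to 59.9% were well above background. The only errors available are technical. The scanner software gave a median error of 0.20 for a log2 difference, which is the error of each member below unless another is stated. For probes printed 10 times on each array, the spread between spots within each array was combined over the 2 arrays. It gave a median SD of 0.10 for a log2 difference and does not measure how well arrays repeat. Each of the 10 members was well above background on every array, where the lowest signal that counted as such was 14.0 to 18.3 units. The adherent label was checked against defining markers: Acta2, the smooth muscle actin of myofibroblasts, had a signal of 435300 on the adherent, 4690 on the non-adherent and 345278 on the re-adherent array. All 12 fibroblast and myofibroblast markers were well above background on each array, with 6 over 2-fold lower in suspension and 2 higher, Lum at 3.56 and Dcn at 1.70. Of all genes, 14.7% were over 2-fold lower and 17.2% higher in suspension. Markers of leukocytes were not absent. Ptprc, which encodes CD45, had a signal of 355, 2441 and 532 in the same order, and the summed signal of 13 measured macrophage markers, over the 75th percentile, was 252, 1591 and 504. In bulk RNA of this kind, fewer cells of a type and less RNA per cell cannot be told apart.

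In suspension, 5 of the 10 subunits were over 2-fold lower than on plastic (Itga1, Itga11, Itga3, Itga5 and Itgb1), where 14.7% of all measured genes were. Itga1 and Itga11, the collagen receptor subunits, were also over 4-fold lower, as were 5.34% of all genes. Both calls for Itga1 rest on its brighter probe, since its dimmer one was at -0.94 on the log2 scale, within 2-fold. Itgb3 alone among the members was over 2-fold higher in suspension, as were 17.2% of all genes. That call too rests on the brighter of its probes, the dimmer one being at -0.05. The remaining 4 subunits, Itga7, Itga8, Itgav and Itgb5, lay within 2-fold. The median difference of the 10 was -1.07 on the log2 scale against -0.07 over all genes, and 9 of the 10 had a value below 0, with Itgb5 among them at -0.05.

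**Figure D1:**
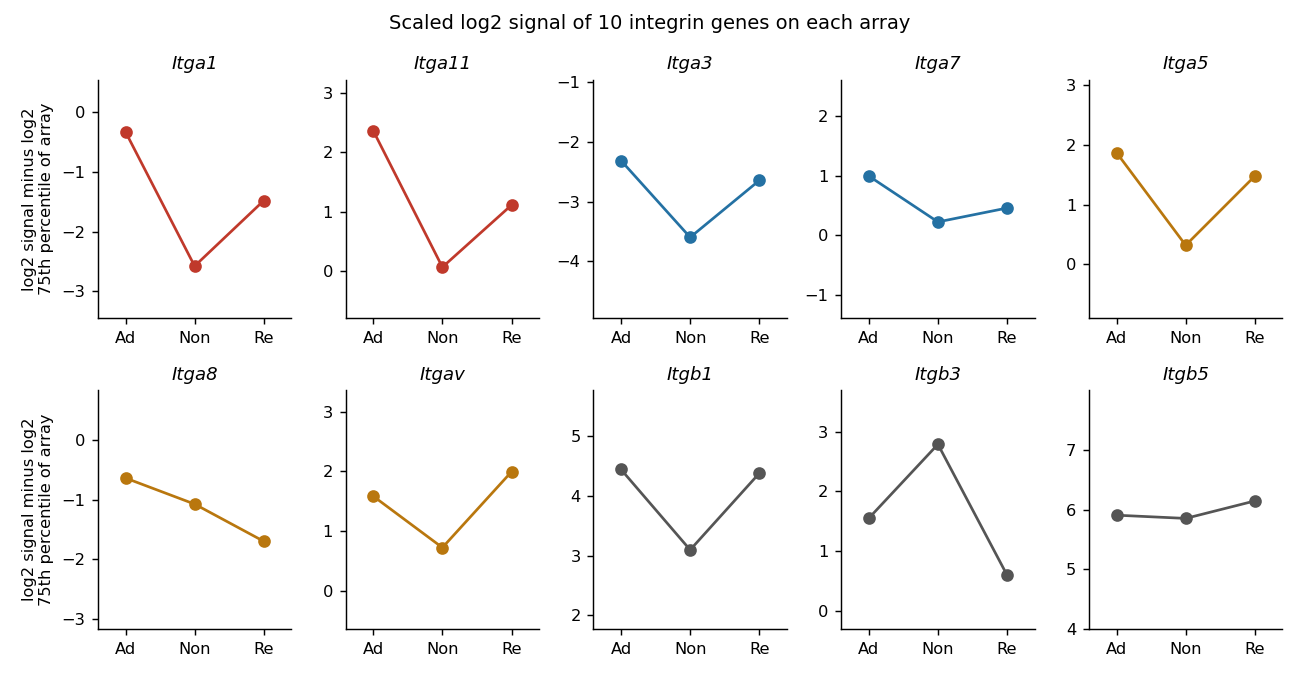
Scaled log2 signal (log2 intensity minus the 75th percentile of the array) of the 10 integrin genes in cells on plastic (Ad), in suspension (Non) and back on plastic (Re), 1 array per state, with lines drawn only to guide the eye. Each panel spans 4 log2 units, so slopes compare between panels but heights do not. After scaling, Itga8 and Itgb3 have their lowest point on the re-adherent array and the other 8 genes in suspension.

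By their brightest probes, the collagen receptor subunits had the lowest values of the members in suspension. Itga1 (NM_001033228), whose product forms α1β1, a receptor of fibrillar and basement membrane collagens, had a signal of 519 on the adherent, 117 on the non-adherent and 194 on the re-adherent array. The adherent array was the highest of the 3 and the non-adherent array the lowest, a 4.76-fold gap, with a log2 difference of -2.25 ± 0.21 in suspension, 1.10 ± 0.21 on re-adhesion and -1.15 ± 0.21 for re-adherent against adherent cells. Only 4.32% of all genes had a lower value in suspension. A dimmer probe of Itga1 gave 94.5, 52.6 and 32.6 units. It was likewise highest on the adherent array, but its order of the other arrays was the opposite, with -0.94 ± 0.24 in suspension and -0.33 ± 0.32 on re-adhesion, so the partial return of Itga1 rests on its brighter probe.

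Itga11 (NM_176922) encodes the alpha subunit of α11β1, a receptor of fibrillar collagen found mainly on fibroblasts. Its only probe had a signal of 3338, 732 and 1171 units on the Ad, Non and Re arrays. This is the order of the brighter Itga1 probe, with log2 differences of -2.29, 1.04 and -1.25 for suspension, re-adhesion and re-adherent against adherent cells. The values of Itga11 and Itga1 differed by 0.04, 0.06 and 0.09 in the 3 comparisons, each below the combined technical error of 0.29. By the brighter Itga1 probe, the gap from Itga1 to the next lowest member in suspension, Itga5, was 0.70 ± 0.29. It is 1 of only 2 gaps between neighbouring members in that comparison that passed 2 technical errors. The dimmer Itga1 probe, at -0.94, lay above Itga5 at -1.55. Among the collagens, Col1a1 had a log2 difference of -0.70 in suspension, Col1a2 of -1.01 and Col3a1 of 0.19.

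The laminin receptor subunits lay nearer to 0 than Itga11. Itga3 (NM_013565), the alpha subunit of α3β1, was the dimmest member with 131, 57.4 and 86.4 units on the Ad, Non and Re arrays. The adherent array was highest and the non-adherent array lowest, with log2 differences of -1.29 ± 0.23, 0.95 ± 0.23 and -0.33 ± 0.22. With the normexp background correction the first of these was -0.82, which takes Itga3 out of the genes over 2-fold lower. Itga7 (NM_008398), which encodes the main laminin-binding alpha subunit of muscle, had 1294, 813 and 742 units. The unscaled signal was lowest on the re-adherent array and the scaled signal lowest in suspension. Its log2 differences of -0.77, 0.23 and -0.54 all lay within 2-fold, and the sign of the value on re-adhesion was not kept, ranging from -0.13 without scaling to 0.29 with the normexp correction. The laminin chains Lama2 and Lama4, ligands of these receptors, stood at -1.31 and -1.17 in suspension.

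The alpha subunits of the RGD receptors did not share a pattern. Itga5 (NM_010577), which with Itgb1 forms the classical fibronectin receptor, had a signal of 2381 on the adherent, 868 on the non-adherent and 1508 on the re-adherent array. Its highest signal was that of cells on plastic before suspension and its lowest that of cells in suspension, with log2 differences of -1.55, 1.16 and -0.39. Fibronectin itself, Fn1, had -1.16, 1.15 and -0.01 in the same comparisons. Itgav (NM_008402), the alpha subunit that pairs with Itgb1, Itgb3, Itgb5, Itgb6 and Itgb8 and binds vitronectin and latent TGF-β, had 1948, 1147 and 2153 units. Both plastic-grown arrays lay above the suspension array, with log2 differences of -0.86, 1.27 and 0.41, and its second probe, at 1247, 663 and 1312 units, gave -1.01, 1.35 and 0.34. Itgav was the member with the highest value for re-adherent against adherent cells, although that value was -0.01 when the arrays were scaled to spike-in probes.

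Itga8 (NM_001001309) took another course. It encodes the alpha subunit of α8β1, a receptor for nephronectin and fibronectin on mesenchymal cells, and had 418, 331 and 167 units on the Ad, Non and Re arrays. The re-adherent array was the lowest of the 3, with log2 differences of -0.44 ± 0.21 in suspension, -0.62 ± 0.21 on re-adhesion and -1.06 ± 0.21 for re-adherent against adherent cells. Npnt, which encodes its ligand nephronectin, had 581, 12.8 and 219 units and was not well above background in suspension. Npnt was at least 44.4-fold lower in suspension than on plastic before, and at least 20.1-fold higher back on plastic than in suspension. Each bound sets the brighter array against the floor of the dimmer one, which is the lowest signal there that was well above background, or the signal of Npnt where that was higher.

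Of the beta subunits, 1 was lower in suspension, 1 higher and 1 level. Itgb1 (NM_010578), the partner of all 7 alpha subunits here, had a signal of 14188 on the adherent, 5962 on the non-adherent and 11286 on the re-adherent array. The plastic-grown arrays lay above the suspension array and close to each other, with log2 differences of -1.35, 1.28 and -0.06, and its second probe gave 2862, 1272 and 2050 units and -1.27, 1.05 and -0.22. Itgb5 (NM_010580), which pairs with Itgav in a vitronectin receptor, had 39068, 40266 and 38334 units. The 3 arrays were within 1.23-fold of each other after scaling, and the signs of its small differences (-0.05, 0.29 and 0.24) each turned under at least 1 other setting.

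By its brighter probe, Itgb3 (NM_016780) was opposite in sign to Itgb1 in suspension and on re-adhesion, but not for re-adherent against adherent cells. It encodes the other common partner of Itgav, also found with Itga2b on platelets, and this probe had 1907, 4820 and 819 units on the Ad, Non and Re arrays. The suspension array was the highest and the re-adherent array the lowest, with log2 differences of 1.24, -2.19 and -0.95. A dimmer probe of the same transcript gave 111, 114 and 35.1 units, or -0.05 ± 0.21, -1.34 ± 0.26 and -1.40 ± 0.26. Both probes thus had their lowest value on the re-adherent array, while the higher value in suspension came from 1 probe, and the mean of the probes was 0.59. Beside it, 12 of 13 measured macrophage markers were over 2-fold higher in suspension with a median of 2.69, and 7 of 10 endothelial markers with a median of 1.73. Over all genes the share was 17.2%. The summed endothelial signal over the 75th percentile was 23.8, 38.9 and 22.3 on the Ad, Non and Re arrays. It leans on Kdr, at 9446, 7939 and 10321 units, which went against most of the list with -0.35 in suspension and 0.74 on re-adhesion. For re-adherent against adherent cells, 7 of the 10 endothelial markers were over 2-fold lower, as were 4.90% of all genes. Their median was -1.99, with Kdr the only 1 higher, at 0.39, and 7 of the 10 were well above background on the Re array. Of the 13 macrophage markers, 5 were over 2-fold higher and 0 lower in that comparison, beside 4.84% and 4.90% of all genes, with a median of 0.85. The medians of the marker sets thus differed in sign where both Itgb3 probes were below 0. No defining marker of either type was at background in suspension, and the part of these cells in the value of Itgb3 was not tested.

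**Figure D2:**
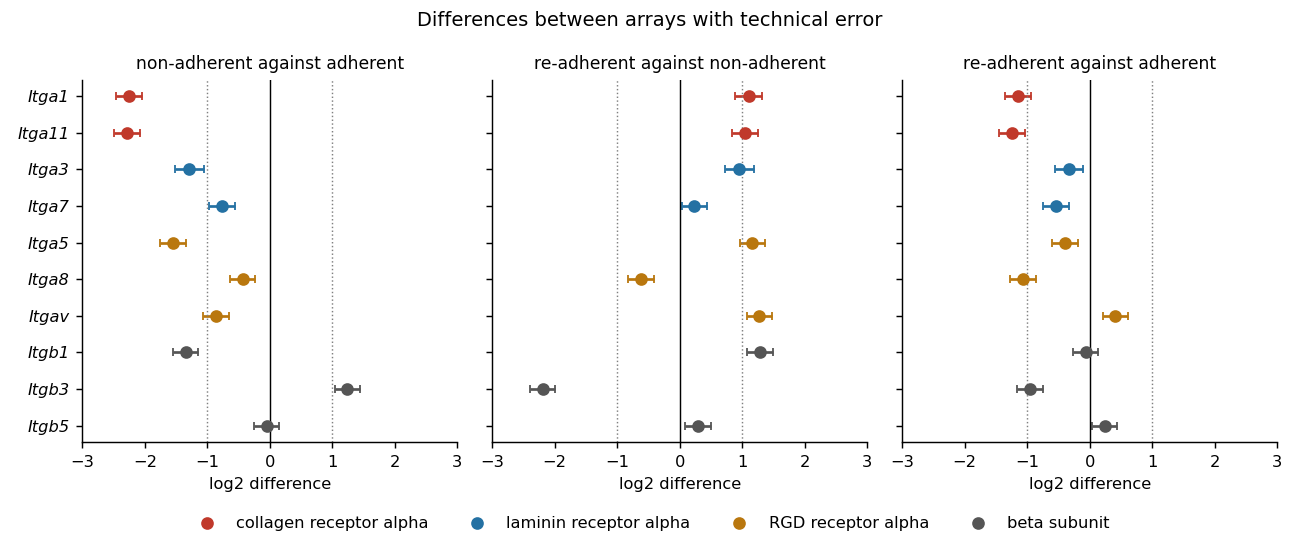
Log2 difference of each integrin gene in the 3 comparisons, with bars of 1 technical error and dotted lines at 2-fold. In suspension the collagen receptor subunits are at -2.25 and -2.29, Itgb3 is at 1.24, and on re-adhesion Itgb3 and Itga8 are the 2 members below 0.

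On re-adhesion, 5 members were over 2-fold higher than in suspension (Itga1, Itga11, Itga5, Itgav and Itgb1), as were 15.6% of all genes, and 1 member, Itgb3, was over 2-fold lower, as were 16.3% of all genes. The median of the 10 was 1.00 against 0.08 over all genes. This comparison shares the non-adherent array with the one before it, so a low or high reading on that array would enter both with opposite sign. It was open to scaling: with the arrays not scaled, 9.90% of all genes were over 2-fold higher and 23.4% lower, the median of all genes was -0.28, and no member was over 2-fold higher. The largest of the 5 values without scaling was 0.92, for Itgb1. In the order of the members, Itgb3 lay 1.57 ± 0.29 below Itga8, Itga8 lay 0.86 ± 0.29 below Itga7, and Itgb5 lay 0.66 ± 0.31 below Itga3, while the 6 members from Itga3 to Itgb1 did not differ from their neighbours beyond 2 technical errors.

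Back on plastic, 3 members were over 2-fold below the adherent array (Itga1, Itga11 and Itga8), as were 4.90% of all genes. Itga8 was at -0.97 with the arrays scaled to their medians, and Itgb3, at -0.95, passed 2-fold under several other settings. None of the 10 was over 2-fold above it, where 4.84% of all genes were. The median of the 10 was -0.46 against 0.06 over all genes, and no gap between neighbours in this order passed 2 technical errors. With the arrays scaled to spike-in probes, 10.9% of all genes were lower and 2.47% higher in this comparison and the median of all genes was -0.35, so the values of the members are to be read relative to that shift. Under the normexp correction Itga11 was the only member over 2-fold lower.

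**Figure D3:**
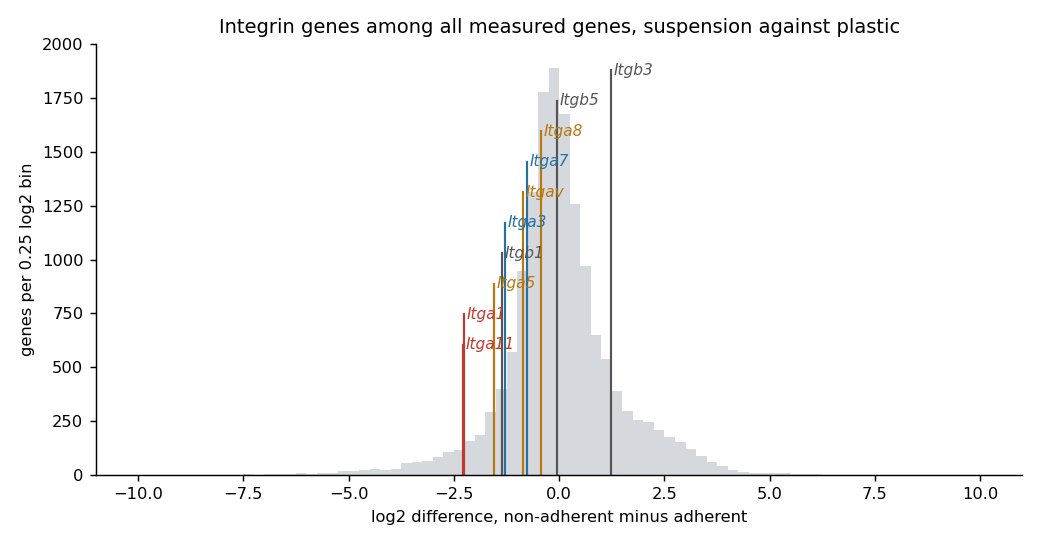
Histogram of the log2 difference between non-adherent and adherent cells over 15394 genes in bins of 0.25 (grey), with the 10 integrin genes as vertical lines whose heights carry no value. Itga11 and Itga1 lie where 4.21% and 4.32% of genes are lower, Itgb5 sits near the middle with 50.8% of genes lower, and Itgb3 has 86.2% of genes below it.

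By receptor class, the mean log2 difference in suspension was -2.27 over the collagen subunits, -1.03 over the laminin subunits and -0.95 over the alpha subunits for RGD proteins. The collagen pair spanned 0.04, the laminin pair 0.52 and the RGD subunits 1.12. The closeness of the collagen pair and its mean rest on the brighter Itga1 probe, since Itga1 was at -1.60 by the mean of its probes and -0.94 by the dimmer one. On re-adhesion the class means were 1.07, 0.59 and 0.60, and for re-adherent against adherent cells -1.20, -0.43 and -0.35. With 2 or 3 genes in a class and 1 array per state, the class means are a description only.

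Because all 7 alpha subunits pair with Itgb1, their differences were also set against that of Itgb1 on the same arrays. This cancels any scaling by 1 constant per array, but not quantile normalization or the normexp correction. In suspension Itga3 and Itga5 stayed near Itgb1, at 0.06 ± 0.30 and -0.20 ± 0.29. Itga1 and Itga11 stood below Itgb1, at -0.90 ± 0.29 and -0.94 ± 0.29. By its dimmer probe Itga1, at -0.94 before this subtraction, was above Itgb1 at -1.35, so the sign for Itga1 turns with the probe. Itga7, Itgav and Itga8 were higher relative to Itgb1, at 0.58 ± 0.29, 0.49 ± 0.29 and 0.91 ± 0.29. Of these, Itgav lay within 2 technical errors and Itga7 at about that limit. On the re-adherent against the adherent array, Itga1, Itga11 and Itga8 stood at -1.09, -1.18 and -1.00 relative to Itgb1, whereas Itga3, Itga5, Itga7 and Itgav lay between -0.47 and 0.47. Itgb1 itself differed by -0.06 between these arrays.

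**Figure D4:**
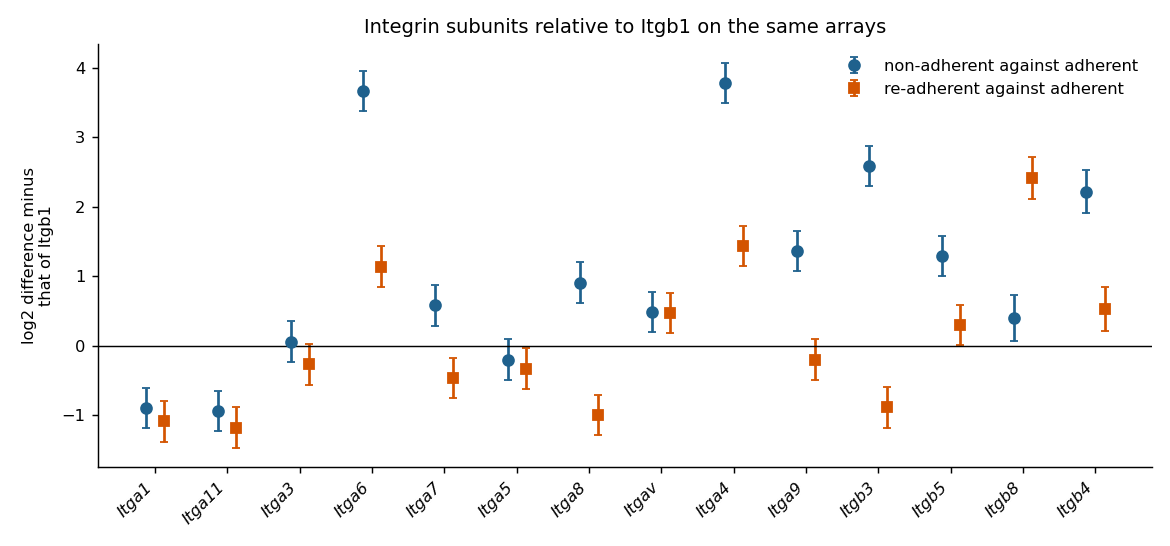
Log2 difference of 14 integrin genes minus that of Itgb1, for non-adherent against adherent (circles) and re-adherent against adherent (squares) cells, with bars of 1 combined technical error. Itga1, drawn by its brighter probe, Itga11 and Itga5 are below 0 in both comparisons. Itga3, Itga7, Itga8, Itga9 and Itgb3 lie above 0 in suspension and below it for re-adherent against adherent cells. Itga3 and Itga5 stay within 2 errors of 0 in both, and Itga4 and Itga6 are at 3.78 and 3.67 in suspension.

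Of the 9 other subunits of matrix-binding integrins, 7 were measured, 2 of them over 2-fold higher and 1 over 2-fold lower in suspension. Over all genes these shares were 17.2% and 14.7%. Itga6, another laminin receptor subunit, had 5599, 30007 and 9839 units on the Ad, Non and Re arrays. Its log2 differences of 2.32, -1.24 and 1.08 were thus opposite in sign to those of the laminin subunits Itga3 and Itga7 in suspension. Itga4, a fibronectin and VCAM1 receptor subunit that leukocytes also carry, had 1033, 5948 and 2225 units and differences of 2.43, -1.05 and 1.37. Itgb8, which with Itgav binds latent TGF-β, was the subunit furthest up on re-adhesion with 56.1, 31.1 and 238 units and differences of -0.95 ± 0.27, 3.30 ± 0.25 and 2.35 ± 0.23. Itga9 had 0.01 in suspension and Itgb4, the partner of Itga6 in epithelia, had 0.87. Itga2, the collagen receptor subunit of platelets and epithelia, was well above background on the adherent array only, at least 2.57-fold above the non-adherent array, and Itga2b was near background at 15.8 to 35.9 units.

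The integrin subunits of leukocytes were set beside these. Itgax and Itgb2 were over 2-fold higher in suspension, at 3.02 and 2.29, while Itgal and Itgb7 had 0.21 and 0.06. Itgam gave -0.84 by its brightest probe and 1.96 and 1.63 by the other 2, so its probes opposed each other. Itgad was well above background on the adherent array only, with signals of 43.9, 3.82 and 5.27 units, and was at least 3.35-fold lower in suspension. The median of the 6 measured was 0.13 in suspension, against 2.69 for the macrophage markers. The value of 0.13 depends on the probe of Itgam, read here by its brightest, and includes Itgad, which was not well above background in suspension. By that brightest probe Itgam was also the 1 macrophage marker not over 2-fold higher. On re-adhesion 12 of the macrophage markers were over 2-fold lower again, as were 16.3% of all genes. How much of the higher Itga4 and Itga6 signal came from such cells was not tested.

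Since Itga1, Itga11, Itga5 and Itgb1 were each over 2-fold lower in suspension and over 2-fold higher on re-adhesion, Itga1 by its brighter probe, the 250 bases upstream of their RefSeq starts (mouse build GRCm38.p6) are shown, 5′ to 3′ along the gene. They lie at chr13:115101965-115102214 on the minus strand for Itga1, chr9:62677605-62677854 on the plus strand for Itga11, chr15:103366792-103367041 on the minus strand for Itga5 and chr8:128685404-128685653 on the plus strand for Itgb1. Capitals mark the only match to the motifs searched.
Itga1: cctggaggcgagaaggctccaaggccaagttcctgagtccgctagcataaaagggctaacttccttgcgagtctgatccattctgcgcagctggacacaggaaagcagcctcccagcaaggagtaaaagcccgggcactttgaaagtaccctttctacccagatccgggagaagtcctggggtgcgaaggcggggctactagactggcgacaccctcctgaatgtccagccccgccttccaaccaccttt
Itga11: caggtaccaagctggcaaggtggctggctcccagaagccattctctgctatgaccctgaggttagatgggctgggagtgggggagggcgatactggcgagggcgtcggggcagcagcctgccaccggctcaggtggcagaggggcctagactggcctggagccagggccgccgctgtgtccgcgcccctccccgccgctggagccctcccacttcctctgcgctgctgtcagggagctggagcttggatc
Itga5: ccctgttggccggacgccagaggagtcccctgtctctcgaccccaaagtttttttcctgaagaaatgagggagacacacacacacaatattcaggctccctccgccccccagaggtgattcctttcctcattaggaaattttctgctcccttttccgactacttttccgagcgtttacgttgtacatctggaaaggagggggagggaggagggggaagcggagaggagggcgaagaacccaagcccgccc
Itgb1: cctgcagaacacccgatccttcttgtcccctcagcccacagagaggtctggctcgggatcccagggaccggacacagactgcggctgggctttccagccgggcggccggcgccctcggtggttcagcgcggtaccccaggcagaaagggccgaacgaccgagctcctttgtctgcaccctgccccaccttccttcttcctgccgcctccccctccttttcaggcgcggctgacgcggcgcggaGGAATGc
The motifs were those of factors known to act downstream of the actin skeleton and of adhesion: the CArG box of SRF, CATTCC of the TEAD factors and TGACTCA of AP-1, each on both strands. Entries existed for 8 of the 10 members, with 9 promoters. CATTCC was found in 1 of the 9, that of Itgb1, read as GGAATG on the opposite strand from base 7 to base 2 before the start, and 12.6% of 32851 mouse promoters of this length hold it. The CArG box and TGACTCA were in none of the 9, and in 1.47% and 4.46% of all promoters. The upstream sequences of Itga1, Itga11, Itga5 and Itgb1 held 57.6%, 68.4%, 55.6% and 68% G and C, against a median of 52.4% over all promoters. These matches describe letters in a short window and say nothing of binding.

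The ligands of these receptors differed by family. Of 12 measured chains of laminins and other basement membrane proteins, 8 were over 2-fold lower in suspension, none higher, and all 12 had values below 0 with a median of -1.34. Of all genes, 14.7% were over 2-fold lower and 17.2% higher, with a median of -0.07. Nid2, Nid1 and Lamb1 had -1.83, -1.66 and -1.55, while Lamb2 and Lama5 had -0.29 and -0.25. Lama1 was not well above background in suspension and was at least 9.05-fold lower there. On re-adhesion 5 of the 12 were over 2-fold higher, as were 15.6% of all genes.

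Proteins bound through RGD and related motifs covered a wider range: 9 of 14 were over 2-fold lower in suspension and 2 higher, with a median of -1.46. Over all genes these shares were 14.7% and 17.2%. The matricellular genes Ccn1, Ccn2, Thbs1 and Tnc, whose products bind Itgav and Itgb1 receptors among others, had -4.50, -4.10, -4.07 and -3.50. They were at 4.19, 4.35, 3.92 and 2.87 on re-adhesion. Spp1, osteopontin, an RGD ligand of Itgav receptors also made by macrophages, had 2.55 in suspension and -1.98 on re-adhesion. These are the signs of the brighter Itgb3 probe, while the dimmer one was at -0.05 in suspension. For re-adherent against adherent cells Spp1 was at 0.56, where the Itgb3 probes were both below 0, at -0.95 and -1.40. Postn and Mfge8 had -0.12 and 0.06, and Vtn, vitronectin, was close to background with signals of 4.76 to 18.5 units. On re-adhesion 8 of the 14 were over 2-fold higher and 3 lower, beside 15.6% and 16.3% of all genes.

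The collagens were divided. Of 10 chains, 4 were over 2-fold lower in suspension and 3 higher, with a median of -0.75, beside 14.7% and 17.2% of all genes. Col5a2 and Col4a1 had -1.58 and -1.51, Col6a2 and Col6a3 had 1.96 and 1.49, and Col3a1 had 0.19. The lowest collagen value, -1.58, was above that of Itga11 and of the brighter Itga1 probe, but below that of the dimmer Itga1 probe. On re-adhesion 2 were over 2-fold higher and 2 lower, beside 15.6% and 16.3% of all genes. On the re-adherent against the adherent array 1 was lower, beside 4.90% of all genes.

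The proteins that hold the beta tail to actin included some of the furthest values in suspension. Of 19 measured adaptors and kinases, 9 were over 2-fold lower in suspension and 3 higher, with a median of -1.00, beside 14.7% and 17.2% of all genes. On re-adhesion 10 were higher and 2 lower with a median of 1.10, beside 15.6% and 16.3% of all genes. Lims2 and Parva, members of the ILK complex, had -5.16 and -4.35, Vcl, vinculin, had -3.24 and Fermt2, the kindlin of mesenchymal cells, had -3.03. Ilk and Ptk2, the focal adhesion kinase, were closer to Itgb1 at -1.09 and -1.00, and Tln1, talin, was at -0.49, with Tns3 and Src at -0.42 and -0.41. Fermt3, the kindlin of blood cells, had 2.88. Back on plastic, 1 of the 19 was over 2-fold above its adherent level and none below it, beside 4.84% and 4.90% of all genes.

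Of 8 measured genes that restrain or traffic integrins, 1 was over 2-fold lower in suspension, Kank2 at -1.31, and 1 higher, Dab2 at 2.26, beside 14.7% and 17.2% of all genes. Sharpin and Itgb1bp1 had 0.81 and 0.28, and Hax1 and Kank1 had -0.17 and -0.04. Among 13 other matrix receptors and integrin partners, 4 were over 2-fold lower in suspension and 2 higher, with a median of -0.55. The collagen-binding kinases Ddr1 and Ddr2, receptors outside the integrin family, had -2.76 and -1.09 in suspension and 2.94 and 1.10 on re-adhesion. For re-adherent against adherent cells they were at 0.18 and 0.01, where Itga1 and Itga11 were at -1.15 and -1.25. Cd151, a tetraspanin bound to laminin receptors, had -1.47, and Sdc4 had -1.37. Dag1 and Mrc2 had -0.40 and -0.24.

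**Figure D5:**
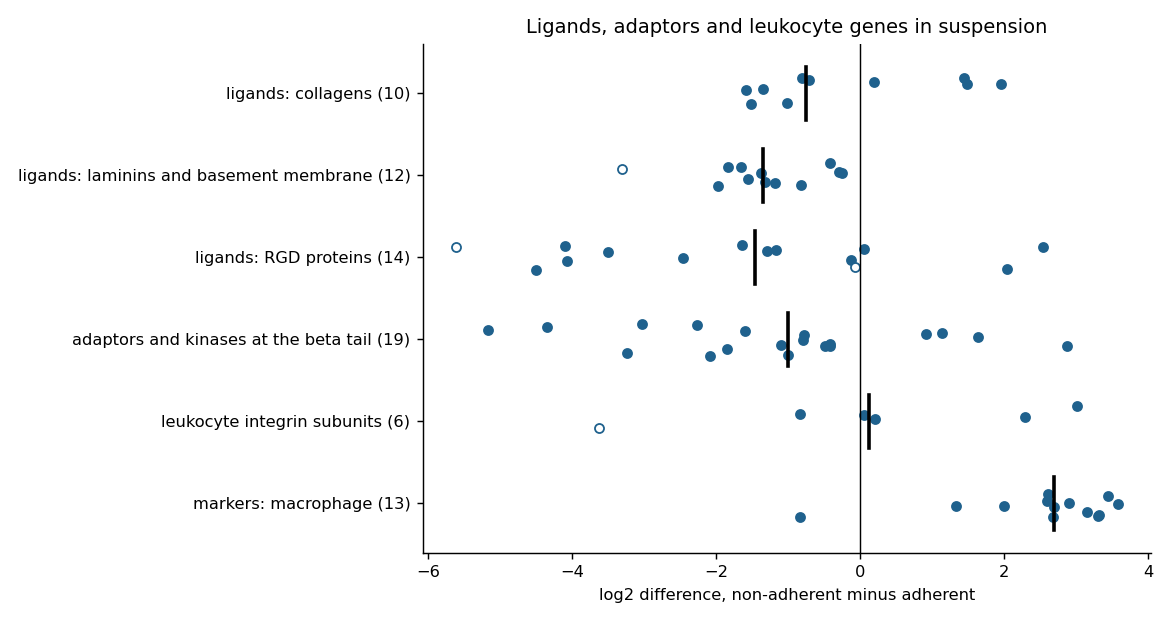
Log2 difference between non-adherent and adherent cells for ligands, beta-tail adaptors, leukocyte integrin subunits and macrophage markers, 1 point per gene with the number measured in brackets; open points were not well above background on at least 1 of the arrays, and the bar is the median. Basement membrane chains all lie below 0, and 12 of 13 macrophage markers lie above 1.

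The surroundings of the members' spots on the slide were also read. Spots well above background within 10 rows and columns of a member had a median log2 difference of -0.23 to -0.04 in suspension, against -0.12 over all such spots. On re-adhesion the surroundings ranged from -0.02 to 0.32, the highest being those of Itgav. For re-adherent against adherent cells they ranged from -0.09 to 0.13.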

How the data were processed

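Cyanine-3 labelled RNA of the adherent, non-adherent and re-adherent cells was hybridised to 1-colour Agilent SurePrint G3 mouse arrays, 3 arrays on the same slide and scan. The authors deposited scanner output of Agilent Feature Extraction 10.10.1.1, with spot intensity as background-subtracted processed signal on a linear scale, its software error and flags. The deposited series matrix held the same intensity times 1 constant per array (1.52, 1.52 and 1.62). Its normalization is not given in the sources used here, so it served as an alternative.

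Here flagged spots were left out (154, 180 and 175 non-control spots), no non-control spot was saturated, and log2 signals were reduced by the 75th percentile of each array over non-control spots. Probes were named through RefSeq transcripts (GRCm38.p6), which matched 21465 of 37881 transcript names. Probes well above background on 1 or more arrays entered, and a gene was read by its probe with the highest mean. The array design rests on an earlier build, so no probe coordinates are given, and the promoter coordinates above are those of GRCm38.p6. For the error of each log2 difference the software's errors of the spots were combined, so it is technical, and the number of arrays limits the precision. With 1 array per group nothing was tested, and a call is a fold over 2. Named genes were all members and measured integrin subunits, up to 4 genes with the largest and 2 with the smallest difference in suspension in each list of ligands, adaptors, inhibitors and other receptors, known ligands, core beta-tail partners and defining markers. A ligand gene that this rule names is not reported here. The members and lists were chosen with earlier results of these data known. Alternatives covered scaling, background correction, filters, the probe per gene and the fold. The files held no mean signal column, so the median spot signal entered the normexp correction (offset 50). Scripts used Python 3.11.15 with pandas 2.3.3 and R 4.3.3 with limma 3.58.1, and were tested on simulated data.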

Additional observations from a re-analysis of the deposited data

How the results depend on the processing

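With 1 array per state no replicate could be left out. No paired analysis was possible because no state had more than 1 array and nothing was tested. The number over 2-fold lower in suspension stayed between 4 and 6 of 10 under every alternative other than the fold itself, Itga3 leaving with the normexp correction and Itgav entering with spike-in scaling, and was 2 at 4-fold. The dimmest probe kept the number at 5 but with Itgav in place of Itga1. The 5 members over 2-fold higher on re-adhesion became 0 without scaling, 1 with the series matrix (Itgb1), 3 with the normexp correction, 2 with spike-in scaling and 0 at 4-fold. Their median of 1.00 became 0.63 without scaling, 0.72 with the series matrix, 0.71 with normexp, 0.67 with the mean or the median of the probes, 0.75 with spike-in scaling and 0.62 with the dimmest probe. The median of -0.46 between re-adherent and adherent cells became -0.73 without scaling and -0.88 with spike-in scaling, and the 3 lower members became 1 with normexp and 0 at 4-fold. Array-median scaling left 2 of these, without Itga8, and 4 were lower, with Itgb3, at 1.5-fold, without scaling and with quantile, series matrix, spike-in and the mean, median or dimmest probe settings. The median in suspension was -0.79 with normexp. The single higher member in suspension, Itgb3, became 0 with the mean, the median or the dimmest probe and at 4-fold, and 2 members were lower on re-adhesion at 1.5-fold (Itga8 and Itgb3). With the dimmest probe the sign turned for Itgb3 in suspension (-0.054) and for Itga1 on re-adhesion (-0.33). Causes other than the changed probe or threshold were not tested. Besides these, signs turned with the scaling where values were small: Itga7 on re-adhesion, Itgav and Itgb1 for re-adherent against adherent cells, and Itgb5 in all 3 comparisons. Spike-in scaling moved the median of all genes in suspension from -0.07 to -0.24. Spike-in scaling and the dimmest probe were chosen after seeing the data.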
